A study of Homo sapiens with 4 samples.

Results

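Among the places where PR100-FLAG was crosslinked to RNA in HEK293T cells, 201 clusters had their summit in a 5′ UTR. The pooled list of significant clusters held 5408 on chromosomes 1 to 22 and X, so these were 3.72% of it. A cluster was counted here when its position with the most unique cDNAs, its summit, lay in an annotated 5′ UTR and in no coding sequence or 3′ UTR on the same strand. The clusters were therefore chosen by their cDNA counts and by where the summit lay, and their number, cDNA counts and region are a description and not a test. Coding sequence held 2566 clusters (47.4%), 3′ UTRs 335 (6.19%) and all other places 2306 (42.6%). The data came from 4 iiCLIP libraries of 1 condition. HEK293T is a human embryonic kidney line that was transiently transfected, and PR100-FLAG is a proline-arginine dipeptide repeat protein with a triple FLAG tag. Its expression was induced with 150 ng/ml doxycycline for 24 h, and the cells were irradiated with UV light at 160 mJ/cm2 and 254 nm. Purification was by SDS-PAGE in replicates 1, 2 and 3 and on beads in replicate 4. The random barcode, by which cDNAs are told from PCR copies, had 5 nt in replicate 3 and 7 nt in the others. Controls and GA100 were not analysed here, so nothing below compares conditions. Nothing in the labels says that the replicates were separate cultures, so the spread given is the spread between these libraries.

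The 5′ UTR is the stretch of an mRNA between its cap and its start codon. The small ribosomal subunit is loaded at the cap and scans along it to the start codon, so sequence and structure there influence how often the mRNA is translated. 5′ UTRs are rich in G and C, and those of ribosomal proteins are short and begin with a run of pyrimidines that ties their translation to growth signals. Poly(PR) is made from the repeat expansion in C9orf72 that causes amyotrophic lateral sclerosis and frontotemporal dementia. It is strongly basic, and it has been found in nucleoli and stress granules and at ribosomes.

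The 10 clusters with the most cDNAs in the 5′ UTR of an Ensembl canonical transcript are shown by their sites, to let the reader see what lies at the summit. Each line gives 30 bases of GRCh38 on the strand of the mRNA, 5′ to 3′. The summit is the sixth base. Capitals mark GANGA, the motif family that was examined in all clusters. It consists of GAAGA and its forms with G (GAGGA) and with C (that is, GACGA) in the middle.
ARNT: ctgcggccatggcggcgactactgccaacc
SERBP1: gccgccgagccaccatcatgcctgggcact
NCL: ctcagtctcgagctctcgctggccttcggg
B4GALT3: ctgttggggtggcggtGACGAcaggcagca
HSPA1B: gaacctgtgcggctgcaggcaccggcgtgt
ZZZ3: cggagccttgggttccgggggcctgggacc
CCDC126: gaagctccgtggcggcggcgaccgtGACGA
RPS24: ctcttttcctccttggctgtctGAAGAtag
EEF2: cggttctacctgggagaatccaccgccatc
NUCKS1: GAAGAgacgggggagcggggggctcgtctg
These sites lie at chr1:150876546-150876575 (ARNT, minus strand), chr1:67430288-67430317 (SERBP1, minus), chr2:231464458-231464487 (NCL, minus), chr1:161177432-161177461 (B4GALT3, minus), chr6:31827820-31827849 (HSPA1B, plus), chr1:77682603-77682632 (ZZZ3, minus), chr7:23597561-23597590 (CCDC126, plus), chr10:78033863-78033892 (RPS24, plus), chr19:3985388-3985417 (EEF2, minus) and chr1:205750144-205750173 (NUCKS1, minus). GANGA was present in 4 of the 10. The site of RPS24 had the lowest GC content at 46.7% and that of ZZZ3 the highest at 76.7%. The start codon of the mRNA is inside the sites of ARNT and SERBP1, which begin to be translated 3 and 12 nt downstream of the summit.

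The clusters fell in 191 genes. One cluster was found in 182 of these genes and 2 or more in 9, with a maximum of 3 in JUN. The label of the region was checked against the canonical transcripts, because a 5′ UTR of a minor transcript can be an intron of the main one. The summit lay in the 5′ UTR of the canonical transcript for 168 of the 201 clusters (83.6%). This share was 82.8% to 84.8% when 1 library was left out in turn. A further 21 lay in an intron of the canonical transcript and 12 upstream of its start. The clusters outside canonical 5′ UTRs held 838 of the 3385 cDNAs. Of the 33 outside canonical 5′ UTRs, 7 overlapped genes of small RNAs, and no cluster over a small RNA gene lay in a canonical 5′ UTR. Of the 191 genes, 105 also had a cluster in coding sequence and 23 one in a 3′ UTR, and 84 had neither. Beside this, 2223 genes with a canonical 5′ UTR had a cluster anywhere, and 1354 genes with such a UTR had one in coding sequence. The same count for 3′ UTRs is not given here, and no difference was tested. Start codons were crossed by 47 clusters. All cDNAs lay in the exon of the summit for 168 clusters, and 96.2% of the cDNAs did in all.

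Most of the clusters were small. They held between 10 and 124 cDNAs with a median of 12, against 13 for all clusters, and 10 was the lowest count in the list. There were 48 clusters with 10 cDNAs, the smallest count admitted, 32 with at least 20 and 8 with at least 50. In all, 3385 of the 127417 cDNAs in clusters (2.66%) were in 5′ UTRs. Of the 334057, 604816, 125694 and 179636 crosslinking events of replicates 1 to 4, 525, 1761, 678 and 421 were in these clusters. That was 0.157%, 0.291%, 0.539% and 0.234% of each library, or 0.306% ± 0.165 (SD, n = 4), so the share was highest in replicate 3, the shallowest library, and the bead-purified replicate 4 lay among the others. When each crosslinked position was counted once, the mean share was 0.198%. Replicate 2 alone gave 52.0% of the cDNAs in these clusters and 48.6% of all events.

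Few of the clusters were seen in every library. A cDNA was present in all 4 libraries for 35 clusters (17.4%), and the same held for 20.1% of all clusters. There were 102 clusters with cDNAs in 3 libraries, 56 in 2 and 8 in 1. Replicate 3 had no cDNA in 95 clusters, replicates 1 and 4 in 63 each, and replicate 2 in 17. A cDNA was thus present in 68.7%, 91.5%, 52.7% and 68.7% of these clusters in replicates 1 to 4. Over all clusters the shares were near these, at 72.8%, 92.1%, 49.0% and 69.4%. The clusters that overlapped a cluster of at least 1 library's own list numbered 68 (33.8%), beside 41.4% of all clusters. In more than 1 library 10 did so: HSPA8, RPL23A, SERBP1, RPL17 and HSPA1B in 3 libraries, and NCL, RPS3, RPS24, EEF2 and H1-4 in 2. The share of all clusters that did so in more than 1 library is not given here. H1-4, a linker histone gene, was named after its values were seen. The own lists of the libraries placed 10 of 448, 65 of 1843, 15 of 523 and 8 of 385 clusters in 5′ UTRs. Across the 201 clusters, Spearman's rho of the CPM between libraries ranged from -0.49 (replicates 2 and 3) to 0.17 (replicates 1 and 4). These values describe clusters that were selected on the summed counts of the same libraries.

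In replicate 3, the 678 cDNAs in the clusters fell on 144 positions, 4.71 per position. The same value was 1.79 in replicate 1, 2.68 in replicate 2 and 1.14 in replicate 4. Over all positions of the genome the libraries had 1.47, 1.67, 2.16 and 1.15 cDNAs per crosslinked position, so replicate 3 was also the most stacked library overall. The part of the shorter barcode of replicate 3 in this was not tested. Replicate 3 gave at least 80% of the cDNAs in 14 clusters, replicate 2 in 33, replicate 1 in 4 and replicate 4 in 0. The same counts over all clusters are not given here.

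Clusters of at most 10 nt with at least 80% of their cDNAs from 1 library are treated apart in what follows. There were 13 of them (6.47%, beside 7.97% of all clusters), 11 from replicate 2 and 2 from replicate 3, with 489 cDNAs. They made up 24.8% of the cDNAs of replicate 2 in 5′ UTR clusters, and 4%, 4.28% and 0.475% of those of replicates 1, 3 and 4. The median width of all 201 clusters was 88 nt (2 to 201 nt), against 85 nt in coding sequence and 76 nt in 3′ UTRs.

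**Figure D1:**
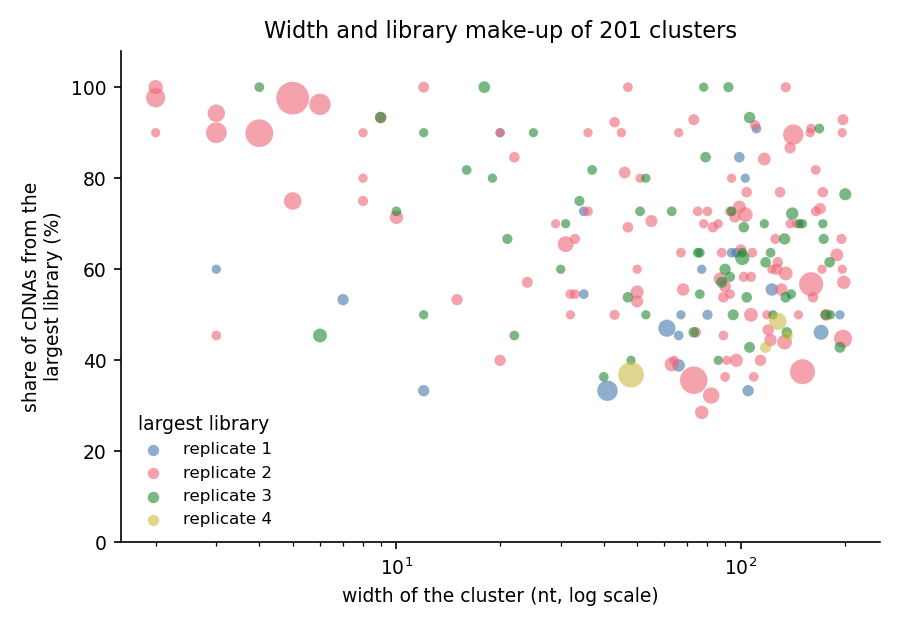
Each point is 1 of the 201 clusters, with its width in nt (log scale) on the x axis and the share of its cDNAs from the library that gave the most on the y axis. Colours give that library and the area of a point is proportional to the pooled cDNAs. The points of ARNT (124 cDNAs) and IGBP1 (89) sit at the upper left, at widths of 10 nt or less and shares of at least 80%, while those of HSPA8 (87), RPL23A (76), SERBP1 (72) and NCL (67) sit lower and further right.

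The cluster with the most cDNAs was in ARNT, the partner of the aryl hydrocarbon receptor and of hypoxia-inducible factors. It covered 5 nt (chr1:150876567-150876571, minus strand), 29 nt from the cap, and had 3, 121, 0 and 0 cDNAs in replicates 1 to 4. The second, in IGBP1, a regulatory partner of protein phosphatase catalytic subunits, covered 4 nt in an intron of the canonical transcript and had 9, 80, 0 and 0 cDNAs. Both were thus high in replicate 2, low in replicate 1 and at 0 in the other libraries.

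Several more of the largest clusters had most of their cDNAs from replicate 2, the deepest library. RAB35, a small GTPase of endosome recycling, had 1, 51, 1 and 0 cDNAs within 6 nt, and SPDYA, an activator of cyclin-dependent kinases, had 4, 45, 1 and 0 within 3 nt. B4GALT3, a galactosyltransferase, had 1, 42, 0 and 0 within 2 nt, and CCDC126 had 0, 33, 2 and 0 within 3 nt. CCAR1, a regulator of cell cycle and apoptosis, was 142 nt wide but had 1, 43, 4 and 0 cDNAs, and ZZZ3, a subunit of a histone acetyltransferase complex, had 2, 27, 7 and 0 within 5 nt. Scaled to the library's total, ZZZ3 was higher in replicate 3 (55.7 CPM) than in replicate 2 (44.6 CPM). In none of these 6 clusters did replicate 4 have a cDNA. The RAB35 cluster lay upstream of the start of the canonical transcript, and those of SPDYA and CCAR1 in introns of theirs.

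The windows of the 13 narrow clusters, 36 nt that begin 5 nt before the summit and end 30 nt after it, had a median GC content of 72.2% (58.3% to 77.8%). GGCGG was present in 6 of the 13 (46.2%), as in the sites of ARNT, B4GALT3 and CCDC126 printed above, and in 33 of the other 188 windows (17.6%). This split uses a class that was defined after the counts were seen, and it was not tested.

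Other large clusters had cDNAs spread over the libraries and over more nucleotides. SERBP1, an mRNA-binding protein that sits on ribosomes, had 9, 27, 22 and 14 cDNAs over 151 nt (chr1:67430183-67430333, minus strand). NCL, the nucleolar protein nucleolin, had 9, 38, 0 and 20 over 160 nt (chr2:231464343-231464502, minus strand). EEF2, the elongation factor that moves the ribosome along the mRNA, had 7, 10, 10 and 4 over 82 nt. RPS24, a protein of the small ribosomal subunit, had 16, 10, 6 and 2 over 61 nt. SERBP1, EEF2 and RPS24 had cDNAs in every library, whereas NCL had none in replicate 3.

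HSPA1B, an inducible heat shock chaperone, had 11, 17, 0 and 10 cDNAs over 198 nt (chr6:31827741-31827938, plus strand). It has a near-identical copy, HSPA1A, and the authors kept only reads that map to 1 place, so its count is uncertain. NUCKS1, a chromatin-associated phosphoprotein, had 26 cDNAs in all. A threshold of at least 3 cDNAs in each of the 4 libraries was met by 8 clusters, which included those in HSPA8, SERBP1, RPL17, EEF2, E2F3, EXO1 and H1-10. The share of all clusters that met it is not given here. E2F3 and H1-10 were named after their values were seen.

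**Figure D2:**
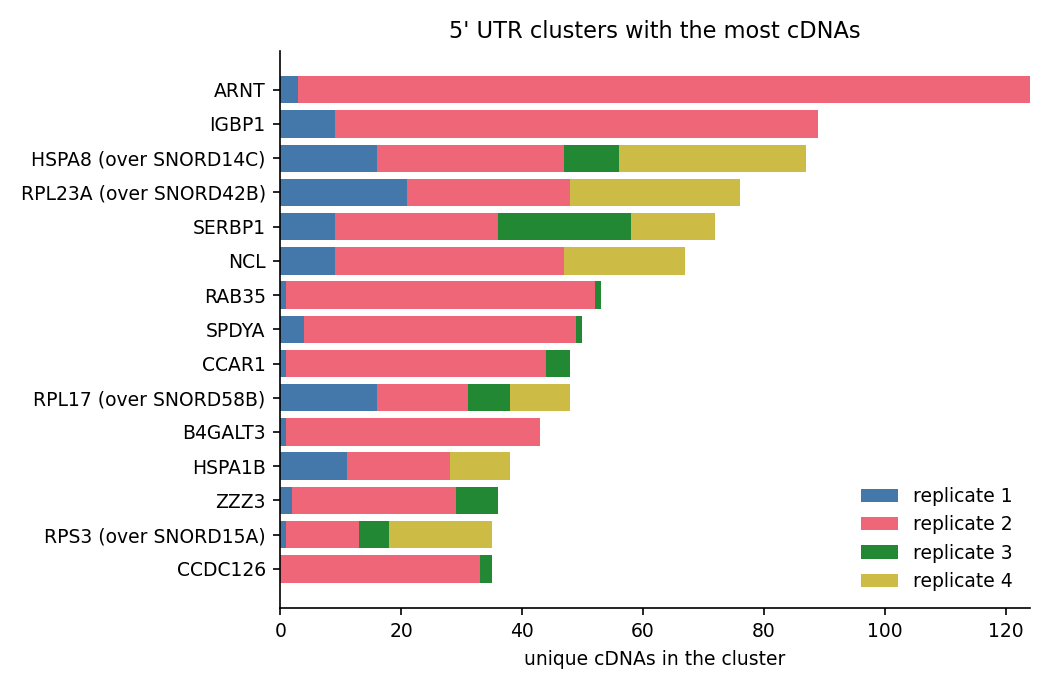
Bars give the unique cDNAs in the 15 clusters with the highest pooled counts, stacked by replicate (colours), on a linear axis from 0. Clusters over a small RNA gene carry its name. ARNT (124 cDNAs), IGBP1 (89), RAB35 (53) and SPDYA (50) are almost wholly from replicate 2, while SERBP1 (72) has cDNAs from all 4 libraries.

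The 7 clusters over small RNA genes held 309 cDNAs, and 6 of the small RNAs were snoRNAs, guides of rRNA modification and processing that are cut from introns. The cluster in HSPA8, a constitutive chaperone, lay over SNORD14C and had 16, 31, 9 and 31 cDNAs. Those in the ribosomal protein genes RPL23A (SNORD42B), RPL17 (SNORD58B) and RPS3 (SNORD15A) had 21, 27, 0 and 28, then 16, 15, 7 and 10, then 1, 12, 5 and 17. RPL32 (SNORA7A), RPL27A (SNORA3A) and C12orf57, over the snRNA gene RNU7-1, had 20, 14 and 29 in all. The clusters of RPS3, RPL23A and HSPA8 had the 3 largest shares from the bead-purified replicate 4 among clusters with at least 30 cDNAs. In HSPA8, RPL17 and RPL32 every cDNA lay in the exon of the alternative transcript that holds the summit. In RPL23A, RPS3, RPL27A and C12orf57, 53 of 76, 28 of 35, 11 of 14 and 14 of 29 did, and the rest lay outside that exon. Within these exons the cDNAs of an mRNA with an alternative 5′ UTR and those of the small RNA cannot be told apart.

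Along the 168 canonical 5′ UTRs, the summits were spread from one end to the other. The median distance was 104 nt to the cap (quartiles 42.8 and 215 nt, highest 1771 nt) and 107.5 nt to the start codon (quartiles 36.8 and 203.5 nt, highest 1046 nt), where 0 nt from the cap is the first nucleotide of the mRNA. The median relative position was 0.494, with 0 at the cap and 1 at the start codon. When each UTR was cut into 5 equal parts from the cap, the parts held 32, 35, 37, 28 and 36 summits. Within 50 nt of the cap there were 48 summits (28.6%) and within 50 nt of the start codon 52 (31.0%), 21 of them near both, and on average 32.4% of the positions of these same UTRs lie that near to either end. Exon 1 held 144 of the summits (85.7%) and 87.1% of the UTR positions on average, exon 2 held 17 and later exons 7. Among the 32 clusters with at least 20 cDNAs, the median for those in canonical 5′ UTRs was 55.5 nt from the cap and 127.5 nt from the start codon.

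The distance to the cap was compared over libraries with the 5′ UTR events that lay outside any cluster, of which replicates 1 to 4 had 4252, 10844, 2122 and 4248. The share of events in the first 50 nt was 36.4%, 35.5%, 21.7% and 24.7% in the clusters of replicates 1 to 4 and 22.4%, 23.9%, 29.5% and 23.5% outside them. The difference was 4.75 ± 10.0 percentage points (SD, n = 4), higher in 3 of 4 libraries and lower in replicate 3. An exact permutation test, which flips the signs of the library differences and is two-sided, gave p = 0.375 (adjusted p = 0.375 over 4 comparisons). With 4 libraries this test can give no p below 0.125. The difference was 8.92 points without replicate 3, 2.45 without replicate 2 and 1.67 without replicate 1. For the first 100 nt in place of 50 nt, it was 10.2 ± 5.24 points and had the same sign in all 4 libraries (exact permutation p = 0.125). The part nearest to the cap, of 5 equal parts, held 20.4% ± 6.17 of the events in clusters and 20.2% ± 4.15 of those outside.

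**Figure D3:**
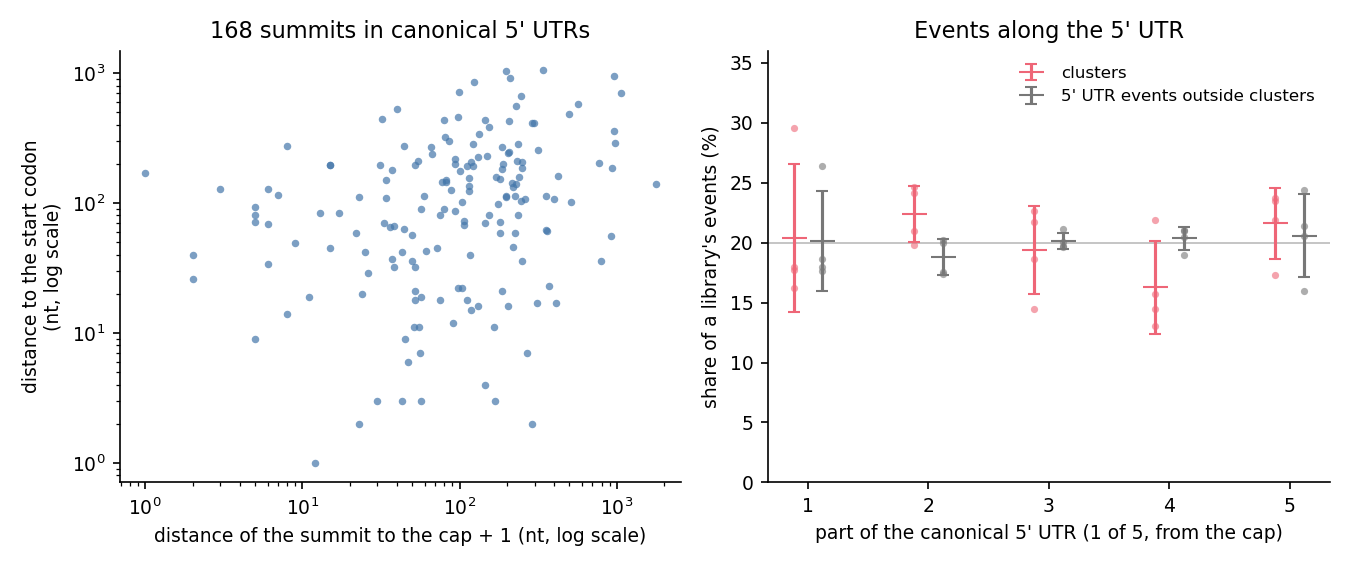
Left, the 168 summits in canonical 5′ UTRs by their distance to the cap, plus 1, and to the start codon, both in nt on log scales. Right, the share of each library's events in 5 equal parts of the 5′ UTR from the cap, with small points for the 4 libraries, bars for mean and SD, red for clusters and grey for 5′ UTR events outside clusters. The means of all parts lie between 16.3% and 22.4%, near the grey line at 20%.

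The summit lay at most 5 nt from the annotated cap in 11 clusters. The nearest were HNRNPA2B1, a splicing and transport factor of RNA in which mutations are linked to ALS, at the cap nucleotide itself, RPS6 and RPL31 at 1 nt, NCL at 2 nt and RPL5 at 4 nt. HNRNPA2B1 had 0, 7, 15 and 2 cDNAs, most of them in replicate 3. RPS6 had 3, 8, 0 and 3, RPL31 had 2, 11, 0 and 0, and RPL5 had 7, 0, 7 and 4, so none of these was seen in every library. The position upstream of a cDNA's first base was counted, so a cDNA that began at the second nucleotide of the mRNA gave a summit at the cap.

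Close to the start codon, 13 summits lay within 10 nt of it. The nearest belonged to ENSG00000258674, a gene without a symbol, at 1 nt with 2, 0, 7 and 2 cDNAs, and to HNRNPM, a splicing regulator, at 2 nt with 1, 7, 0 and 7. PCM1, a protein of centriolar satellites, also lay at 2 nt with 1, 8, 0 and 1, and ARNT and RPS25 lay at 3 nt. RPS25 had 8, 9, 0 and 6 cDNAs and was the only 1 of these 5 whose cDNAs numbered at least 5 in 3 libraries. On the other side of the rule's border, 70 coding sequence clusters had their summit in the first 50 nt after the start codon of a canonical transcript, against the 52 in the 50 nt before it. Upstream of the other border, 7 clusters outside any UTR or coding sequence lay within 50 nt before a canonical cap.

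Genes with more than 1 cluster showed how far apart sites in 1 leader could be. JUN, a subunit of the transcription factor AP-1 with a 5′ UTR of 977 nt, had summits 123, 493 and 774 nt from the cap with 15, 10 and 12 cDNAs. By library these were 4, 6, 4 and 1 at 123 nt, 0, 9, 0 and 1 at 493 nt and 0, 9, 0 and 3 at 774 nt. The cluster at 493 nt was 2 nt wide, and that at 774 nt was 8 nt wide, both mostly from replicate 2. EXO1, a DNA repair exonuclease, had summits at 39 and 312 nt with 11 and 21 cDNAs, and both had cDNAs in all 4 libraries. MORF4L2, a chromatin protein, had 12 cDNAs at 65 nt and 19 at 224 nt. PRRC2C, a stress granule protein, had 14 at 53 nt and 11 at 217 nt.

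SLIT2, a secreted axon guidance cue, had 15 and 10 cDNAs at 961 and 1771 nt of a 5′ UTR of 1911 nt, the longest of the canonical 5′ UTRs with a cluster, and all but 1 cDNA of each cluster came from replicate 2. TLE3, a transcriptional corepressor, had 11 and 10 cDNAs at 209 and 932 nt of 1119 nt. RPL23A also had more than 1, with the cluster over SNORD42B and a smaller one of 2, 6, 0 and 4 cDNAs, 7 nt from the canonical cap.

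The 5′ UTRs with a cluster were longer than most. The canonical 5′ UTRs of the 159 genes concerned had a median length of 232 nt, against 146 nt for the 2223 genes with a cluster anywhere and 136 nt for all 19379 genes. A long UTR offers more positions for a cluster, so this difference is given as a description. Their median GC content was 65.9%, against 67.2% and 64.5%.

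The sequence around the summits was GC-rich, and so were the UTRs in which they lay. The median GC content of the 36-nt windows was 63.9% (11.1% to 91.7%), against 50% for coding sequence clusters and 47.2% for 3′ UTR clusters. At least 75% GC was found in 51 windows and below 50% in 30. Set against all windows of its own UTR, the summit window was below the median in 76 clusters, above it in 66 and equal to it in 26, and the median difference was 0 percentage points. With windows of 10 nt on either side, the median difference was -2.38 points.

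Over libraries, the mean GC content around events in the clusters was 59.2%, 63.2%, 65.9% and 57.8% in replicates 1 to 4, and around 5′ UTR events outside clusters it was 59.1%, 63.7%, 67.5% and 63.6%. The clusters were lower by 1.92 ± 2.66 points (SD, n = 4) on average and higher in 1 of 4 libraries (exact sign-flip permutation test, p = 0.25, adjusted p = 0.333). Replicate 4 gave the widest gap, -5.79 points, and without it the difference was -0.64 points. The set includes the clusters over small RNA genes. Those of HSPA8, RPL23A, RPS3 and RPL17 had window GC contents of 44.4%, 41.7%, 33.3% and 30.6%. They held 31, 28, 17 and 10 of the 421 cDNAs of replicate 4, and 31, 27, 12 and 15 of the 1761 of replicate 2. Their part in the gap was not tested. In canonical 5′ UTRs alone it was -1.14 points (exact permutation p = 0.25). Without the narrow clusters of 1 library, the difference was -2.59 points and negative in every library (exact permutation p = 0.125). That class was defined after the counts were seen, and its median window GC was 72.2%, against 63.9% for all 201 clusters. It was left out of the cluster side alone, which lowers that side, so this p-value is no separate support for a difference.

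A window GC content of 91.7%, the upper end of the range, was found in FBXL19, an F-box protein that binds CpG islands. FBXL19 had 2, 0, 8 and 1 cDNAs, most of them from replicate 3. HECTD4, a ubiquitin ligase, had 5, 18, 1 and 1 cDNAs at 88.9%, and MSL2, a ubiquitin ligase of a histone acetyltransferase complex, had 8, 4, 1 and 2 at 88.9%. HRAS, a small GTPase of growth signalling, had 2, 8, 10 and 2 at 86.1%, in an intron of its canonical transcript. The lowest were 11.1% in IGF2R, the receptor that carries IGF2 and mannose 6-phosphate proteins to lysosomes, and 19.4% in CDC42BPA, a kinase of the cytoskeleton. IGF2R had 6, 5, 0 and 0 cDNAs, in an intron of its canonical transcript, and CDC42BPA had 6, 7, 0 and 0 in its canonical 5′ UTR. RCC1, the exchange factor of the nuclear transport GTPase Ran, had 2, 1, 8 and 0 at 27.8%, and the clusters of RPL17 over its snoRNA and of EXO1 at 312 nt followed at 30.6%.

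GANGA motifs of any of these forms were found at these summits about as often as elsewhere in the same 5′ UTRs. On the strand of the mRNA, 27 of the 201 windows (13.4%) held a GANGA motif. For the 168 canonical clusters the share was 13.7%, against an average of 14.0% over all windows of the same UTRs and 13.3% over the 3939036 windows of all canonical 5′ UTRs. In coding sequence clusters it was 33.3%, and in 3′ UTR clusters 9.55%. GAAGA was in 15 windows (7.46%, against 5.42% of all 5′ UTR windows and 23.5% of coding sequence clusters), GAGGA in 11 (5.47%, 7.69% and 14.9%) and GACGA in 6 (2.99%, 1.40% and 3.82%). For the canonical clusters alone, GAAGA was in 8.33% of the summit windows and in 6.32% of all windows of the same UTRs. A window can hold more than 1 of them.

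The difference from coding sequence was tested over libraries. GANGA stood in the window of 21.5%, 26.1%, 13.3% and 13.5% of the events in 5′ UTR clusters in replicates 1 to 4, and of 39.7%, 40.8%, 28.3% and 43.0% of the events in coding sequence clusters. The share in 5′ UTR clusters was lower by 19.3 ± 6.92 points (SD, n = 4) and lower in 4 of 4 libraries (exact sign-flip test, p = 0.125 and the least that 4 libraries allow, adjusted p = 0.333). The smallest gap was -14.7 points in replicate 2, and the values of the sets did not overlap. The bases of the 2 regions differ, as the GC contents above show, and their part in the gap was not tested.

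Against 5′ UTR events outside clusters, which held GANGA in 15.9%, 15.6%, 9.24% and 15.5%, the clusters were higher by 4.56 ± 5.14 points in 3 of 4 libraries (exact permutation p = 0.25, adjusted p = 0.333). This excess was widest in replicate 2, 10.5 points, and was 2.57 points without replicate 2. For GAAGA alone, the excess over events outside clusters was 2.18 ± 1.68 points and had the same sign in all 4 libraries (exact permutation p = 0.125). Among the 13 narrow clusters of 1 library, those in IGBP1, RAB35, SPDYA, B4GALT3 and CCDC126 held GANGA. It was absent from those in ARNT, ITCH, DENND4B, TNPO2 and NEFL and from the narrow ones of JUN and SLIT2. Without the narrow clusters of 1 library, the shares in 5′ UTR clusters were 19.4%, 15.7%, 13.3% and 13.6%, the excess was 1.46 points (exact permutation p = 0.375), and the gap to coding sequence was -22.5 points (exact permutation p = 0.125).

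**Figure D4:**
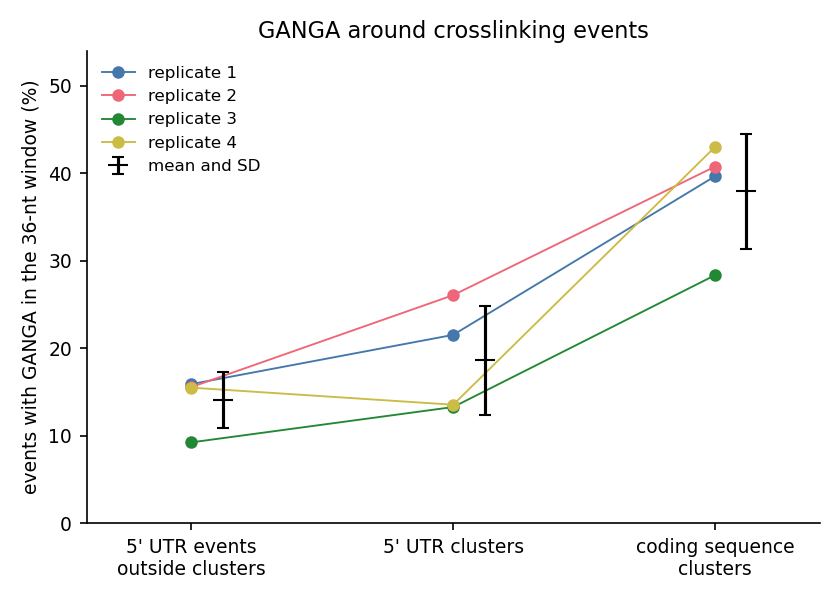
Each line joins the values of 1 replicate, the percentage of crosslinking events with a GANGA motif in the 36-nt window, for 5′ UTR events outside clusters, 5′ UTR clusters and coding sequence clusters. Black bars give mean and SD over 4 libraries. All 4 lines rise from 5′ UTR clusters (18.6% on average) to coding sequence clusters (37.9%).

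Of the other motifs, GGCGG was in 39 windows (19.4%). For canonical clusters its share was 18.5%, against 19.3% of all windows of the same UTRs, 12.8% of all canonical 5′ UTR windows and 4.21% of coding sequence clusters. CGACG was in 6 windows (2.99%, against 1.77% of all 5′ UTR windows), GGGGCC, the sense repeat unit of C9orf72, in 6 (2.99%, against 3.36%) and ATAAT in 2 (0.995%, against 0.981%). ATG was in 51 windows (25.4%, against 28.0%). Motifs were searched on the strand of the mRNA alone, and several of these motifs can overlap each other by a base or more. A match is a description of the letters and not a site.

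Genes were also grouped by lists chosen with earlier results of these data known. Of the 2250 protein-coding genes with a cluster of any kind, 193 (8.58%) had the summit of a cluster in a 5′ UTR, counting both genes where 2 share a UTR position. In total 56 of the genes were in a list. The shares below were over genes that have any cluster and were not tested, and mRNA levels were not measured in these libraries.

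Ribosomal proteins were the list with the most genes, 13 of 50 (26.0%) with 14 clusters, of which 5 lay over small RNA genes. In the canonical 5′ UTRs of these genes there were 9 clusters, in leaders with a median length of 45 nt (21 to 106 nt). Their summits had a median distance of 7 nt to the cap, and 8 of the 9 lay within 50 nt of it, against a median of 114 nt for the other 159 canonical clusters. With leaders this short most positions are near the cap. RPS24 (16, 10, 6 and 2 cDNAs) was the largest of the 9 and held GAAGA in its window.

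Other lists concerned translation. Of the translation factors, 6 of 26 had a 5′ UTR cluster (23.1%), led by EEF2 and by EIF5A, the factor that helps ribosomes through proline stretches, with 1, 6, 6 and 2 cDNAs. EIF4G1, the scaffold of the cap-binding complex, had 2, 3, 8 and 1 in an intron of its canonical transcript. Of mRNAs known for control through their 5′ UTR, 3 of 9 had a cluster. Among them were ATF4, whose upstream reading frames couple it to stress, with 1, 10, 0 and 2 cDNAs at 7 nt from the cap, and PABPC1, the poly(A)-binding protein that binds its own leader, with 2, 7, 0 and 1. The summit window of ATF4 was 44.4% GC and that of PABPC1 80.6%.

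Splicing factors of the hnRNP and SR families had 10 genes of 34 (29.4%), with a median window GC of 75%, against 63.9% for all 201 windows. No window of these 10 held GANGA, which was in 13.4% of all 201 windows, and with so few windows this was not tested. HNRNPA2B1 was first, followed by HNRNPD, a regulator of mRNA decay, with 1, 13, 0 and 2 cDNAs and SRRM2, a scaffold of nuclear speckles, with 2, 8, 3 and 3. SRRM2 was the 1 member of these 3 seen in every library. Nucleolar proteins had 4 of 22 (18.2%): NCL, NPM1, the nucleolar chaperone nucleophosmin, with 6, 11, 0 and 3, GNL3, a GTPase, with 0, 3, 10 and 2, and NOP56, a core protein of snoRNPs, with 12 in all.

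Chaperones had 5 of 14 genes (35.7%), namely HSPA8, HSPA1B, HSPA5, the chaperone of the endoplasmic reticulum, with 10, 8, 0 and 0 cDNAs, and HSP90AA1 and HSP90AB1, with 11 each. Histone chaperones and HMG proteins had 6 of 14 (42.9%). HMGN2, which binds nucleosomes, had 5, 13, 0 and 4 and ANP32E, a chaperone of H2A.Z, had 4, 10, 0 and 4, while all 16 cDNAs of SUPT16H, a subunit of the FACT complex, came from replicate 3. Chromatin remodellers and helicases had 1 of 32 (3.13%), SMARCA4, with 0, 4, 13 and 1, and DEAD and DEAH box helicases 1 of 19 (5.26%), DHX9, with 6, 2, 0 and 2. Both shares were under the 8.58% of all genes with a cluster, and each rests on 1 gene. The shares of all other lists were above it, from 16.7% to 42.9%.

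The remaining lists had few genes. Nuclear pore and transport proteins had 4 of 16 (25%), of which KPNB1, an importin, had 2, 10, 1 and 0 cDNAs, and RCC1 is given above. TNPO2, another import receptor, had all 11 from replicate 3, in an intron of its canonical transcript. ALS-linked genes had 2 of 11 (18.2%), HNRNPA2B1 and NEFL, the light neurofilament, whose 8-nt cluster had 1, 9, 0 and 0. Stress granule proteins had 3 of 16 (18.8%), PRRC2C and PABPC1 among them. Tubulins, actins and filaments had 2 of 12 (16.7%), ACTB with 0, 9, 3 and 4 and TUBB with 1, 8, 0 and 2.

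Reads of the opposite strand were rare at the clusters. There were 18 antisense cDNAs in the spans of 7 clusters, 11 of them at EEF2, beside 31 sense cDNAs there.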

How the data were processed

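The 4 libraries were described from the lists of crosslinked positions and of clusters. The authors removed PCR duplicates by the random barcode and aligned the reads to GRCh38 (Gencode 27) with STAR, whose version is not given in the sources used here. Only reads that mapped to 1 place were kept, and the base just upstream of each read was taken as crosslinked. They called clusters with iCount at a false discovery rate of 0.05, and the joining distance is not given. The deposited values are counts of unique cDNAs, with no normalisation. All 5408 cluster counts were the sum of their positions and of the 4 libraries.

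Summits (leftmost of ties, 29 clusters) were placed with GENCODE 44, which is later than the authors' version. Distances followed the spliced Ensembl canonical transcript. Windows ran over the genome from 5 nt upstream to 30 nt downstream of a position (36 nt), and crossed an exon end before the start codon at 5 summits. CPM values used each library's total. Shares of clusters carry no interval, because clusters are not replicates. Libraries, and not clusters, were the unit of the 4 exact two-sided sign-flip permutation tests, with Benjamini-Hochberg adjustment over them. The p-values given for alternative settings of these 4 were not adjusted.

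Members, gene lists and tests were chosen with earlier results of these data known. Of the gene lists, 2 symbols were not in the annotation. Named genes were the 15 clusters with the most cDNAs, up to 8 genes with 2 or more clusters, the 5 nearest to the cap and to the start codon, the 5 highest and lowest in GC, up to 3 genes of each list, and the 3 clusters with the largest share of replicate 4 and of replicate 1 among those with at least 30 cDNAs. Some clusters that this rule names are not reported here. A few genes outside this rule complete short counts or lists and were chosen after their values were seen. Motifs were chosen in the same way. The code was tested on simulated data, where region, distance and summit were recovered for 200 of 200 clusters. Alternatives changed the region order, the minimum of cDNAs, the window, the counting of positions and the libraries included. Python 3.11.15, numpy 2.4.6, scipy 1.17.1 and matplotlib 3.10.9 were used.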

Additional observations from a re-analysis of the deposited data

Results flagged for a closer look

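The CPM of the 15 largest clusters and 5 summary values were examined for a library that stood far from the other 3, by the gap to its nearest neighbour over the whole range (Dixon's test). Of these 20, 4 were marked. Chance alone marks about 1 in 20 groups, but that rate does not apply to the 15 clusters, which were chosen by the summed counts of the same libraries. All 4 were narrow clusters in which replicate 2 was high. ARNT reached 200.1 CPM in replicate 2, RAB35 84.3 CPM, SPDYA 74.4 CPM and B4GALT3 69.4 CPM. These clusters are 2 to 6 nt wide, so their cDNAs start at almost the same nucleotide.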

How the results depend on the processing

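Of 101 alternatives over 14 results, 86 kept the direction or stayed within the spread or, for counts, within a 1.5-fold change. The remaining 15 moved a value, and none reversed a difference. The number of clusters was 328 when a 5′ UTR was given precedence over coding sequence and 3′ UTR, and it was 32, in 32 genes, with at least 20 cDNAs. Leaving out 1 library in turn gave 40 to 89 clusters with a cDNA in every remaining library (64 without replicate 1 and 89 without replicate 3), and 8 had at least 3 cDNAs in every library. The same step gave 25 to 68 clusters in a library's own list, with 25 without replicate 2, so that count rests on replicate 2. The median distance to the cap ranged from 97.5 to 111 nt over the left-out libraries, and was 55.5 nt with at least 20 cDNAs, 100 nt with 1 cluster per gene and 160 nt from the most upstream annotated start. When a library was left out, clusters were not called anew, and 198 to 204 of the pooled clusters had a summit in a 5′ UTR. The values without a library therefore do not show what a call without it would give. With at least 20 cDNAs, the median distance to the start codon was 127.5 nt and the relative position 0.407. Windows of 10 nt on either side gave -2.38 points of GC against the same UTRs. The excess of events near the cap was 10.2 points with 100 nt in place of 50 nt, and the share of a library's events in the clusters was 0.198% with each position counted once. Beyond fewer clusters or libraries, the cause was not tested. Alternatives without narrow clusters, without small RNA genes or in canonical 5′ UTRs alone were added after the data were seen. No paired analysis was possible because all libraries belong to 1 condition, so there are no groups of libraries to pair by replicate number, and the sign-flip tests set values of the same library side by side. For clusters near the median of 12 pooled cDNAs, the absence of a cluster from a single library could not be told from low depth.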
